A study of Bos taurus with 6 samples.

Results

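The genes described here encode the enzymes and helpers that hydroxylate, fold, trim and cross-link collagen. They are LOX, LOXL1, LOXL2, LOXL3, P4HA1, P4HA2, PLOD1, PLOD2, SERPINH1 and PCOLCE, chosen by symbol from the mRNA count table, where all 10 were found among 25444 genes. The table compares intramuscular fat (IMF) of steers and bulls of the Chinese Qinchuan breed, dissected from the sternomandibularis muscle at 24 months of age. Both groups were weaned at 3 months and kept on the same diets, and the steers had been castrated surgically at 6 months while the bulls were left intact. Each group was sequenced as 1 library of pooled RNA, from 6 animals according to the series' design text and from 3 according to the sample labels. The data therefore hold no replicate error, and all animals had the same sire.

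Collagen is made in the endoplasmic reticulum (ER), where prolyl hydroxylases built on P4HA subunits hydroxylate its prolines and so let the helix hold at body temperature. Lysyl hydroxylases of the PLOD family modify lysines that later take part in cross-links, and SERPINH1 is a chaperone that binds folded procollagen. Outside the cell PCOLCE speeds the removal of the carboxyl propeptide, and the copper enzymes LOX and LOXL oxidise lysines so that neighbouring molecules become covalently joined. In fat and muscle this network surrounds adipocytes and muscle fibres.

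The raw counts sum to 12677375 in steers and 9868415 in bulls. Libraries were scaled by median-of-ratios size factors, which placed the median log2 fold change (log2FC, steers over bulls) of the 17752 genes with a count at 0.01. A gene is called upregulated or downregulated here when a two-sided exact binomial test of its pair of counts gave a Benjamini-Hochberg adjusted p under 0.05 and its fold change was over 2. By this rule 776 genes were upregulated and 1444 downregulated, against 539 and 2006 under scaling by total counts. This test compares the reads of these libraries and not the conditions. Brackets hold the 95% Clopper-Pearson interval of a value. It takes in counting error and nothing else, as PCR copies of 1 molecule count as separate reads.

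In steers 3 of the 10 genes were upregulated (LOXL1, PCOLCE and P4HA2) and 0 were downregulated, while 4.37% of all genes tested were called upregulated and 8.13% downregulated. LOX, the founding member of the lysyl oxidases, had a lower scaled count in steers, and 8 of the 10 genes a higher one. The median log2FC of the 10 genes was 0.66. In bulk tissue, fewer cells of a type and less RNA per cell cannot be told apart. Scaling by total counts ended the call of P4HA2, and edgeR's exact test with an assumed biological coefficient of variation of 0.4 called 0 of the 10 genes. All 10 had at least 300 counts in total, and among the genes with that depth 2.97% were upregulated. With a fold change over 1.5 in place of 2, LOXL2, LOXL3 and SERPINH1 were also called, which makes 6 of the 10 genes upregulated. The upregulated share at this fold was 9.31% of all genes and 11.1% of those with at least 300 counts. At this fold 0 of the 10 were downregulated, beside 12.2% of all genes. The downregulated share among genes with at least 300 counts was not computed. The depth limit was added after the counts had been seen, and the 10 genes were chosen with earlier results of these data known. These shares therefore describe the genes and test nothing.

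**Figure D1:**
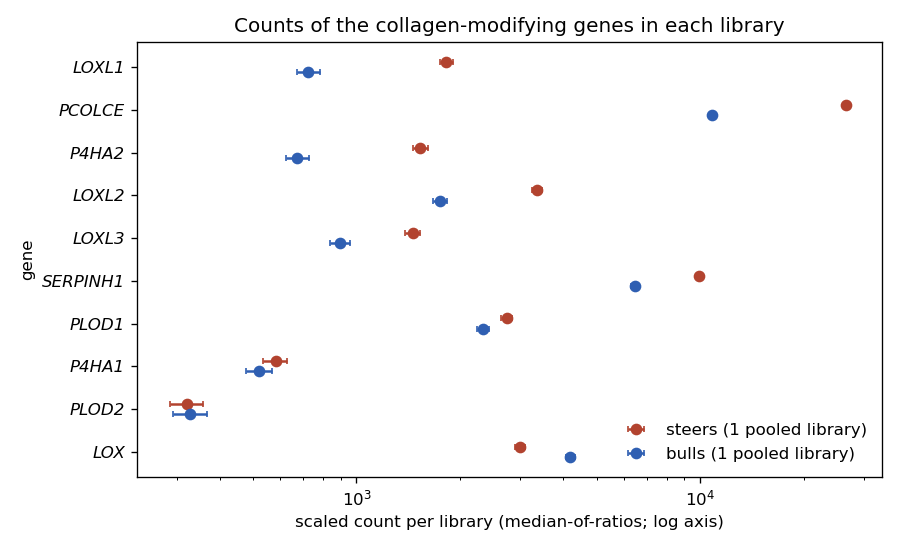
Scaled count of each of the 10 genes (log axis) in the pooled library of steers (red) and of bulls (blue), with bars for the 95% Poisson counting interval. Counts also depend on transcript length, so the points compare libraries within a gene; LOX lies to the left in steers at 2996 against 4191, and LOXL1 to the right at 1827 against 725.

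Among the lysyl oxidases, which start the cross-links of collagen and elastin, LOX had 3126 counts in steers against 4017 in bulls. After scaling, LOX was 1.40-fold lower in steers, a log2FC of -0.48 (-0.55 to -0.42), which is under the fold threshold. The log2FC of LOX was below 0 with each other scaling tried, at -0.72 with total counts. However, its adjusted p was not under 0.05 in edgeR's exact test with an assumed biological coefficient of variation of 0.1. LOXL1, an oxidase known for its role in elastic fibres, had 1906 counts in steers against 695 in bulls. It was upregulated 2.52-fold, with a log2FC of 1.33 (1.21 to 1.46). The steer and bull libraries thus stood in opposite order for these paralogs.

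LOXL2, which acts on the collagen of basement membranes among other substrates, had 3494 counts in steers against 1680 in bulls. Its log2FC of 0.93 (0.85 to 1.02) was just short of the threshold, and its interval includes 1. LOXL3 showed 1521 and 860 counts, a log2FC of 0.70 (0.58 to 0.82). In RefSeq's annotation of the ARS-UCD2.0 assembly LOXL2 overlaps a snoRNA gene and LOXL3 overlaps HTRA2, which had 240 counts in steers against 255 in bulls, and the use of strand in the counting is not given in the sources used here.

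The fifth lysyl oxidase, LOXL4, is not among the 10 genes but completes the family. It showed 1526 and 777 counts and a log2FC of 0.85 (0.73 to 0.98). The counts of all 5 family members together, 11573 in steers and 8029 in bulls, had a log2FC of 0.41 (0.36 to 0.45). LOXL1 to LOXL4 summed to 8447 counts in steers and 4012 in bulls, a log2FC of 0.95 (0.90 to 1.01).

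The make-up of the family also differed between the libraries, and this measure does not depend on how the libraries were scaled. LOX supplied 27.0% (26.2 to 27.8) of the family's counts in steers and 50.03% (48.9 to 51.1) in bulls. LOXL1 supplied 16.5% (15.8 to 17.2) in steers and 8.66% (8.05 to 9.29) in bulls. LOXL2 supplied 30.2% (29.4 to 31.0) in steers and 20.9% (20.04 to 21.8) in bulls. The ratio of LOXL1 to LOX counts was 0.610 in steers and 0.173 in bulls, which is 3.52 times as high in steers (exact conditional 95% interval 3.19 to 3.90). The ratio to LOX was also higher in steers for LOXL2, by 2.67 times (2.48 to 2.88), and for LOXL3, by 2.27 times (2.06 to 2.50). Between LOXL2 and LOXL4 the ratio differed by 1.06 times (0.953 to 1.18), an interval that includes 1. These ratios within families were formed after the counts had been seen.

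**Figure D2:**
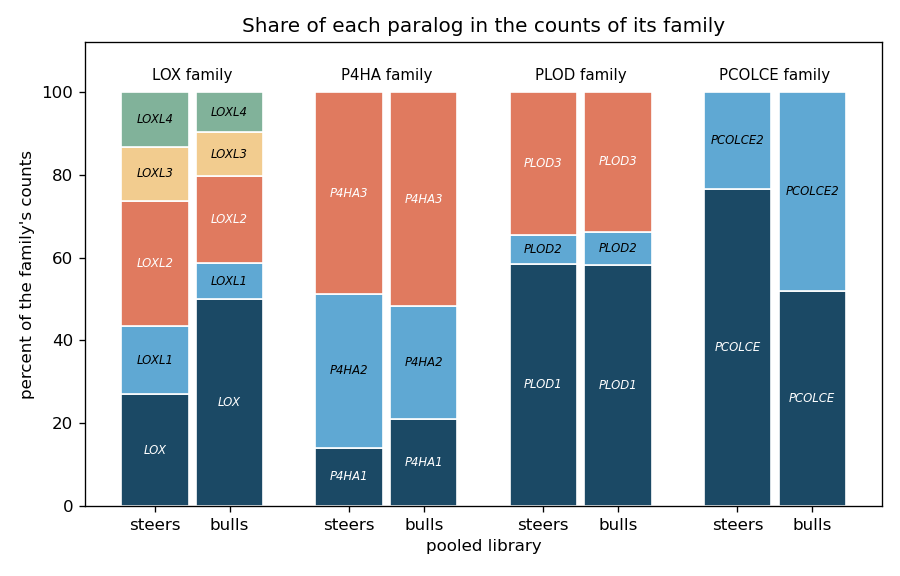
Share of each paralog in the counts of its family (percent, from 0) in the pooled libraries of steers and bulls, for the lysyl oxidases, the prolyl hydroxylase subunits, the lysyl hydroxylases and the PCOLCE pair. Shares are of reads and are not corrected for transcript length; LOX takes 50.03% in bulls and 27.0% in steers, while PLOD1 takes 58.5% and 58.1%.

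For the prolyl hydroxylases, P4HA1 and P4HA2 each encode a catalytic subunit that pairs with P4HB. P4HA1 had 607 counts in steers against 499 in bulls and a log2FC of 0.16 (-0.01 to 0.33), which became -0.079 with total counts. P4HA2 showed 1602 and 645 counts and was upregulated 2.28-fold, with a log2FC of 1.19 (1.06 to 1.32). The interval of the first subunit includes 0 and that of the second does not. The ratio of P4HA2 to P4HA1 counts was 2.64 in steers and 1.29 in bulls, 2.04 times as high in steers (exact conditional interval 1.75 to 2.38).

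P4HA1 overlaps a pseudogene in the same RefSeq annotation, and P4HA2 overlaps an lncRNA gene and PDLIM4, a gene with 339 counts in steers and 288 in bulls. With total counts the log2FC of P4HA2 was 0.95, under the threshold. P4HA3, a further catalytic subunit, showed 2102 and 1229 counts and a log2FC of 0.65 (0.55 to 0.75). P4HB, the shared partner subunit, showed 8647 and 5130 counts and a log2FC of 0.63 (0.58 to 0.68).

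The lysyl hydroxylases had the log2FC closest to 0 of the families, 0.22 (0.16 to 0.28) for the summed counts of PLOD1, PLOD2 and PLOD3. PLOD1, which acts mainly on lysines of the helix, had 2853 counts in steers against 2240 in bulls. Its log2FC was 0.23 (0.15 to 0.31), and -0.012 with total counts. PLOD2, which acts on lysines of the collagen ends, had the fewest counts of the 10 genes, 335 and 315. Its log2FC was -0.03 (-0.26 to 0.19), an interval that includes 0, and -0.27 with total counts (exact binomial test, Benjamini-Hochberg adjusted p = 0.0451). PLOD3, the paralog outside the 10 genes, was at 0.26 (0.15 to 0.36).

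Shares within the lysyl hydroxylases were closer between the libraries than those of the oxidases. PLOD1 held 58.5% (57.1 to 59.9) of the counts of PLOD1, PLOD2 and PLOD3 in steers and 58.1% (56.6 to 59.7) in bulls. For PLOD2 the share was 6.87% (6.18 to 7.62) and 8.18% (7.33 to 9.09). The ratio of PLOD1 to PLOD3 in steers was 0.981 times that in bulls (exact conditional interval 0.894 to 1.08), and the ratio of PLOD1 to PLOD2 was 1.20 times that in bulls (1.01 to 1.42).

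**Figure D3:**
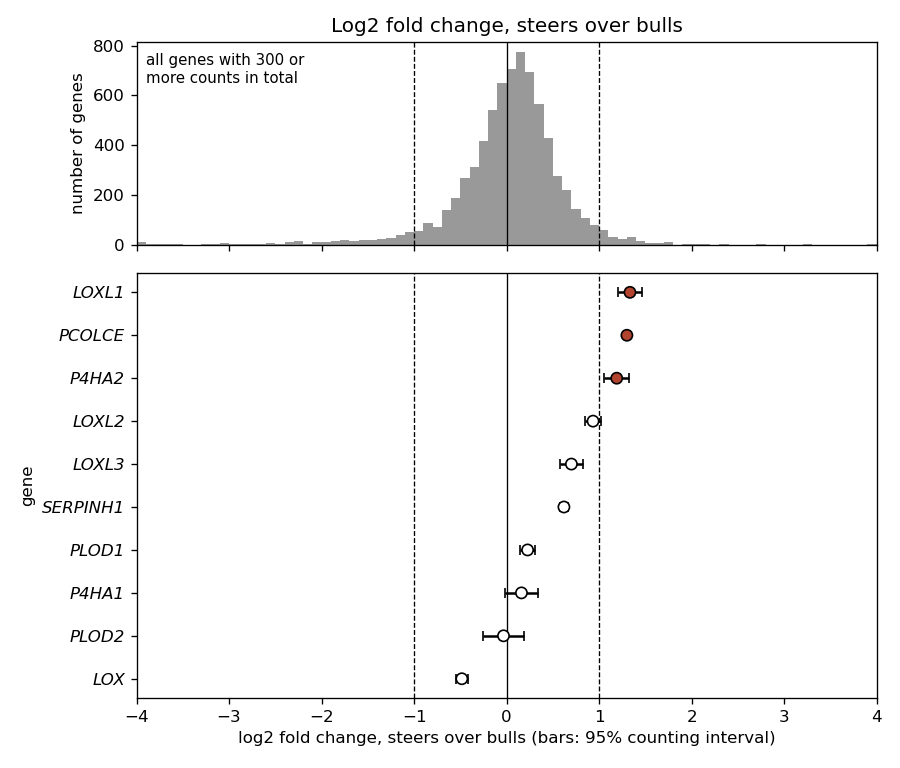
Log2 fold change of the 10 genes, steers over bulls, with 95% counting intervals (lower panel; filled points are upregulated, dashed lines mark 1 and -1), under the distribution of all genes with at least 300 counts in total (upper panel, number of genes per bin, values beyond 4 drawn at 4). LOXL1, PCOLCE and P4HA2 lie beyond 1, LOXL2 at 0.93 lies beside the line and LOX at -0.48 lies furthest to the left.

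SERPINH1, the procollagen chaperone also called HSP47, had 10342 counts in steers against 6185 in bulls. Its log2FC was 0.62 (0.57 to 0.67), 1.54-fold higher in steers and not called. The ratio of its counts to those of P4HB was 1.20 in steers and 1.21 in bulls (ratio of ratios 0.992, exact conditional interval 0.946 to 1.04). Against HSPA5, a general ER chaperone, the same ratio was 0.834 times (0.780 to 0.891) that of bulls.

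PCOLCE had the most counts of the 10 genes, 27778 in steers and 10364 in bulls. This enhancer of propeptide cleavage was upregulated 2.46-fold, with a log2FC of 1.30 (1.27 to 1.33). It made up 51.9% (51.4 to 52.3) of the counts of the 10 genes in steers and 37.7% (37.1 to 38.3) in bulls. All 10 genes together had a log2FC of 0.84 (0.82 to 0.86) for the sum of counts, and the 9 genes without PCOLCE one of 0.47 (0.44 to 0.50).

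The paralog PCOLCE2 had 8449 counts in steers against 9595 in bulls, a log2FC of -0.31 (-0.35 to -0.26). The ratio of PCOLCE to PCOLCE2 was 3.29 in steers and 1.08 in bulls, 3.04 times as high in steers (exact conditional interval 2.93 to 3.16). BMP1, the protease that PCOLCE enhances, showed 1559 and 1051 counts and a log2FC of 0.45 (0.33 to 0.56).

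The enzymes were next set against their main substrate. The 13 collagen chains of a list written from general knowledge summed to 1403588 counts in steers and 614680 in bulls, a log2FC of 1.07 (1.06 to 1.07). Per 1000 of these collagen counts, LOX stood at 2.23 in steers and 6.54 in bulls. LOX was thus 2.93-fold lower per collagen count in steers, at -1.55 (-1.62 to -1.49) on the log2 scale. PLOD2 was at -1.10 (-1.33 to -0.88), P4HA1 at -0.91 (-1.08 to -0.73) and PLOD1 at -0.84 (-0.92 to -0.76) on the same scale.

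LOXL1, at 1.36 and 1.13 per 1000 collagen counts, and PCOLCE, at 19.8 and 16.9, were higher in steers also on this measure, with log2 values of 0.26 (0.14 to 0.39) and 0.23 (0.20 to 0.26). P4HA2 was at 0.12 (-0.01 to 0.26), an interval that includes 0. In all, 7 of the 10 genes had an interval below 0, 2 above it and 1 across it, and the median was -0.41. On this scale a gene falls below 0 when its own log2FC is under the 1.07 of the collagen sum. Of all genes tested, 13.1% had a log2FC over 1, so most genes would fall below 0 as well. With the 10 fibroblast markers in place of collagen the median of the 10 enzymes was 0.35. Of the 10, 6 then had an interval above 0, 1 across it and 3 (LOX, PLOD1 and PLOD2) below it. The interval of PLOD1 ended at -0.00015. LOX was at -0.79 (-0.86 to -0.72) by that measure.

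**Figure D4:**
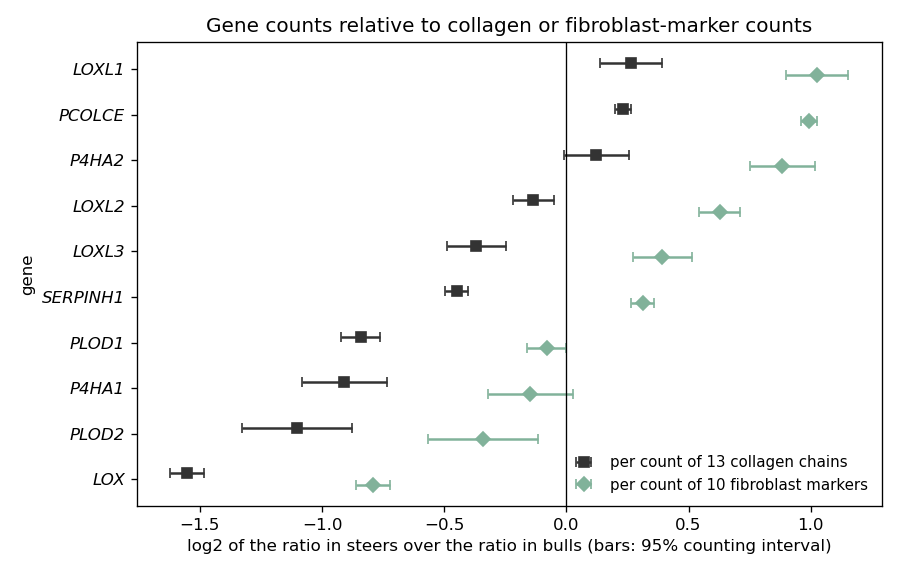
Log2 of each gene's count ratio in steers over that in bulls, with 95% counting intervals, where the ratio is taken within a library to the counts of 13 collagen chains (squares) or of 10 fibroblast markers (diamonds). LOX is lowest by both measures, at -1.55 and -0.79, and LOXL1 and PCOLCE are above 0 by both.

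Other genes were taken from 6 lists written from general knowledge, called the pathway lists here. They include general ER chaperones and hypoxia-response genes, which are not confined to collagen. Over all genes tested, the shares called were 4.37% upregulated and 8.13% downregulated. Of 14 partners of hydroxylation and folding in the ER, 13 were found, of which 1 was upregulated, 2 were downregulated and 10 did not pass, with a median log2FC of 0.45. P3H4, which assists lysyl hydroxylation and is listed under the older symbol LEPREL4, showed 1819 and 787 counts and rose by 1.09 (0.97 to 1.21), a call that total counts ended. P3H2, a prolyl hydroxylase that acts on other positions than P4HA, showed 247 and 477 counts and a log2FC of -1.07 (-1.30 to -0.85). COLGALT2, which adds galactose to hydroxylysine, showed 68 and 133 counts and was at -1.09 (-1.53 to -0.66).

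Of 10 genes of procollagen export and propeptide cleavage 0 were called in either direction, and their median was 0.17, or -0.071 with total counts. Of these, ADAMTS2, which removes amino propeptides, had the most counts over both libraries, 12411 and 6597, and a log2FC of 0.79 (0.75 to 0.83). The 7 genes of extracellular cross-linking and scaffolds of LOX enzymes had a median of 0.60. Of these, 2 were upregulated, EFEMP2, a scaffold for LOX on elastic fibres, at 1.16 (1.09 to 1.23) and POSTN at 1.02 (0.84 to 1.21), and neither was called with total counts. FMOD, a collagen-binding proteoglycan with 169037 and 102586 counts, was at 0.60 (0.59 to 0.61).

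Among 14 substrate genes, collagen chains and elastin, 4 were upregulated and 2 downregulated, with a median of 0.90. The upregulated chains were COL6A1 at 1.44, COL5A1 at 1.36, COL3A1 at 1.27 and COL1A1 at 1.00. Of these, COL1A1 was not called with total counts or TMM factors. COL6A2, at 0.999, was just short of the threshold. With a fold change over 1.5, 11 of the 14 were upregulated and 2 downregulated, beside 9.31% and 12.2% of all genes. COL2A1 and COL11A1, chains known from cartilage, were downregulated at -2.04 (-2.67 to -1.44) and -1.19 (-1.39 to -0.99), with 30 and 113 counts and with 305 and 638 counts.

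General ER chaperones had a median of 0.73 over the 9 of 10 genes in the table. HYOU1 at 1.06 (0.90 to 1.22) and SDF2L1 at 1.15 (0.40 to 1.93) were upregulated and 7 did not pass, and with total counts 0 were upregulated. CALR had the most counts of this list over both libraries, 8092 and 3924, and was at 0.92 (0.87 to 0.98).

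Several of the 10 genes are known targets of the oxygen-sensing factor HIF1, so a list of hypoxia-response genes was read beside them. Of the 9 genes found, 1 was upregulated and 2 were downregulated, and their median was 0.17, or -0.064 with total counts and -0.16 among genes with at least 10 counts. SLC2A1, a glucose transporter, rose by 1.62 (1.36 to 1.87). BNIP3 was at -1.12 (-1.26 to -0.98) and ANKRD37 at -1.23 (-2.10 to -0.41). NDRG1 had the most counts, 5742 and 3721, and was at 0.50 (0.44 to 0.56). Over all 6 lists, general ER chaperones and hypoxia-response genes included, 10 of 62 genes were upregulated and 6 downregulated, beside 4.37% and 8.13% of all genes tested. With total counts, 4 of the 62 were upregulated and 7 downregulated. With median-of-ratios scaling and a fold change over 1.5, 30 of the 62 were upregulated and 7 downregulated, beside 9.31% and 12.2% of all genes.

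**Figure D5:**
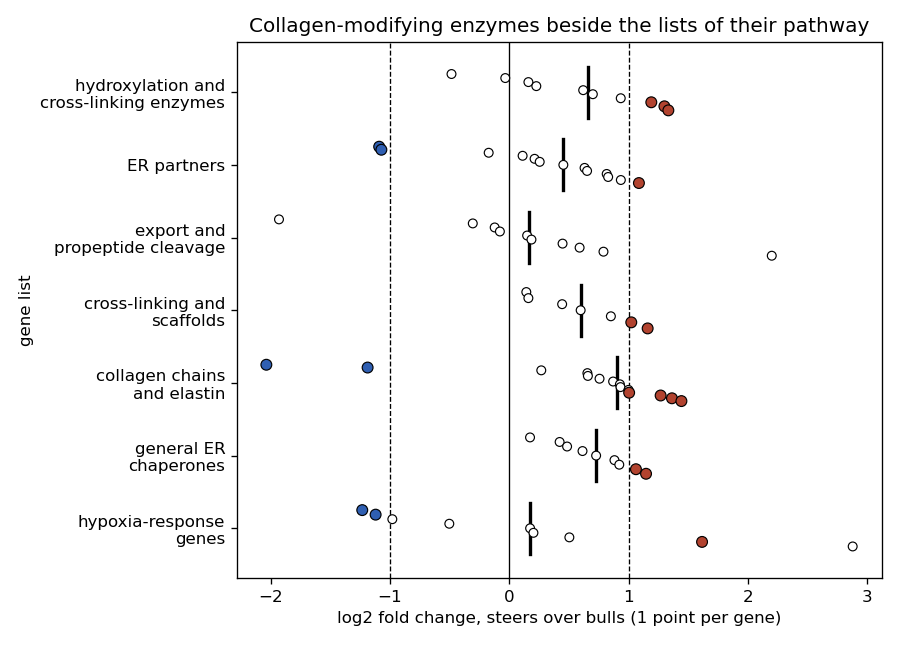
Log2 fold change (steers over bulls) of each gene of the 10 enzymes and of 6 lists read beside them, 1 point per gene, with the median of each list as a bar. The lists include general ER chaperones and hypoxia-response genes, which are not confined to collagen. Red points are upregulated, blue points downregulated and white points not called; the median is 0.66 for the 10 enzymes, 0.90 for collagen chains and elastin and 0.17 for hypoxia-response genes.

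Markers of the cell types that IMF could hold were read in the same libraries. Sums of marker counts are raw and not scaled for the larger total of the steer library. Of 10 fibroblast markers 0 were called and their median log2FC was 0.05. Their counts summed to 149472 in steers and 110978 in bulls, a log2FC of 0.31 after scaling. They ranged from -0.48 for DPP4 and PDGFRA to 1.00 for THY1 (35642 and 16389 counts) and 0.95 for LUM (14023 and 6692 counts), leaving out TCF21. With a fold change over 1.5, THY1 and LUM were called upregulated. DCN had the most counts of them, 76081 and 68158, and TCF21 had 0 in steers and 3 in bulls. Adipocyte markers, 9 of 10 in the table, were present in both libraries with a median of 0.02. Their sums were 45182 and 40410 counts, a log2FC of 0.04 after scaling. RBP4 had the most of their counts, 11553 and 8283, and CIDEA, with 998 and 136 counts, was the 1 upregulated gene. The log2FC was below 0 for 4 of the 9, at -0.68 for ADIPOQ, -0.48 for PLIN4, -0.38 for PLIN1 and -0.02 for LIPE.

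The summed counts of tendon, muscle, macrophage and T lymphocyte markers were lower in steers. Tendon markers, 5 of 6 in the table, summed to 114504 counts in steers and 160369 in bulls, of which THBS4 had 104300 and 133605, while TNMD (58 and 696 counts) and COMP (4459 and 23516 counts) were downregulated and KERA (5220 and 2170 counts) was upregulated. Skeletal muscle markers summed to 31086 and 44001 counts, with ACTA1 at 13852 and 19910. Of these 10 markers MYH7 (675 and 2906 counts) and TNNT1 (485 and 1801 counts) were downregulated and MYH1 (247 and 102 counts) was upregulated. Smooth muscle markers, 6 of 8 in the table, summed to 13418 and 18213 counts, with DES, at 3721 and 8207 counts, the 1 downregulated gene. The log2FC was below 0 for 4 of these 6 and above 0 for 2, at 0.45 for TAGLN and 0.34 for RGS5.

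Endothelial markers summed to 10250 and 9768 counts, a log2FC of -0.05 after scaling. Of these markers, 0 of 8 were called and their median was -0.24, with PECAM1 at 4541 and 3723 counts. Macrophage markers, 8 of 9 in the table, summed to 20330 and 42292 counts, 6 of them downregulated, and CSF1R had 7057 and 12309. T lymphocyte markers summed to 149 and 786 counts with 7 of 8 downregulated, CD3E at 35 and 253 counts and CD3G at 0 in steers and 34 in bulls. The part of these cell types in the values of the 10 enzymes was not tested.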

How the data were processed

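The authors removed adaptors and low-quality reads from Ion Proton sequencing of pooled IMF RNA and used MapSplice to align what was left to the bovine assembly. The submitters' processing notes, read over all samples of the series, name BWA and the human assembly GRCh37.p13. The authors named BWA for the small RNA reads. The counting program is not given in the sources used here. The deposited file gives each gene's raw count, without normalization, in 1 library per group.

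Groups follow the sample titles. Counts were scaled by median-of-ratios size factors (1.04 for steers, 0.959 for bulls) in numpy 2.4.6 and tested as stated above with scipy 1.17.1, with the smaller binomial tail doubled. The test was run on simulated Poisson counts of these depths. They hold no variation between animals, so this run checks the computation only. A gene with 0 counts in 1 library entered a median at a floor of 3 counts. Older symbols stood in for genes absent under their present ones. All 10 genes are named, with every gene called and the gene with the most counts of each pathway list and the marker with the most counts of each marker list. Other genes named complete a family or a ratio, or are markers picked after their values were seen. The genes and lists were chosen with earlier results of these data known. Alternatives were total counts, TMM and upper-quartile factors of edgeR 4.0.16 (R 4.3.3), a filter of 10 counts, edgeR's exact test with an assumed biological coefficient of variation, another fold threshold and other denominators. The small RNA libraries were not used here.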

Additional observations from a re-analysis of the deposited data

How the results depend on the processing

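Scaling by total counts moved the median of all genes to -0.23, that of the 10 enzymes to 0.42 and that of the pathway lists to 0.35, left 4 upregulated genes in those lists and turned P4HA1 to -0.079 and PLOD1 to -0.012. It called 539 genes upregulated and 2006 downregulated, 21.2% upregulated instead of 34.96%. With edgeR's exact test and an assumed biological coefficient of variation of 0.2, 368 genes were upregulated and 762 downregulated, 4 and 1 of them in the pathway lists, and P4HA2 was no longer called (adjusted p = 0.0678). With 0.4, the counts were 52 and 93, with 0 of the 10 enzymes and 0 and 0 of the pathway genes called; at an unadjusted p under 0.05, 0 of the enzymes, 0 pathway genes up and 1 down passed. A fold threshold of 1.5 gave 1653 and 2174 genes, 6 enzymes and 30 upregulated pathway genes. With fibroblast markers in place of collagen, the median ratio was 0.35 instead of -0.41. The causes were not tested. TMM factors, upper-quartile factors and the filter of 10 counts changed no call among the 10 enzymes, while TMM factors ended the call of COL1A1.

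No paired analysis was possible because each group had 1 mRNA library. For the same reason no library was left out. PLOD2, with 335 and 315 counts, is the gene that depth limits most.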

Other observations

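Lysyl oxidases need copper and the hydroxylases need ascorbate, so genes that supply these cofactors were read in the same libraries, from a list of 7 genes written after the counts of the enzymes had been seen. The exact binomial test called 0 of the 6 genes found in the count table, whose median log2FC was 0.01. Of all genes tested, 4.37% were upregulated and 8.13% downregulated, so 0 calls among so few genes tell little. ATP7B had 99 counts in steers against 69 in bulls, a log2FC of 0.40 (-0.06 to 0.86). The copper importer SLC31A1 had 342 counts in steers against 384 in bulls, a log2FC of -0.29 (-0.50 to -0.08), and SLC31A2 had 334 and 382 counts. ATOX1, the copper chaperone of the secretory route, had 232 and 209 counts and was at 0.03 (-0.25 to 0.31). The ascorbate transporter SLC23A2 had 422 and 307 counts, with a log2FC of 0.34 (0.12 to 0.55), while SLC23A1 had 0 and 3.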
